A study of Homo sapiens with 12 samples.

Results

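Human EndoC-βH1 cells, an insulin-producing line used as a model of the pancreatic β-cell, were profiled on 12 one-colour circRNA arrays, and 52 of the 13617 circRNA probes were well above background in the untreated cells but hardly ever in the cells given cytokines. These 52 probes were chosen from the detection flags themselves. A probe was taken when its spot carried the well-above-background flag on 5 or 6 of the untreated arrays and on 0 or 1 of the 6 cytokine arrays. The 52 made up 0.382% of the circRNA probes. Cells were left untreated (Control) or exposed to IL-1β at 50 U/mL together with IFN-γ at 1000 U/mL (Cyt), for 24 h or 48 h, with 3 arrays in each of the 4 groups. The labels of the 48 h cytokine samples name 48 h as the time but also a treatment of 24 h, whereas the methods give an exposure of 48 h, and 48 h is used here. All samples came from the one cell line, and the labels do not say that replicates were separate cultures, so the p-values below measure only the spread between these arrays.

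Circular RNAs form when a downstream splice site is joined back to an upstream one, and the closed loop has no free ends. This makes them resistant to the exonuclease RNase R, with which every sample here was digested before labelling, and it leaves a back-splice junction that linear transcripts lack and that the array probes target. IL-1β acts largely through NF-κB and IFN-γ through receptor-bound JAK kinases, and both are used on β-cells to mimic the inflamed islet of type 1 diabetes. The probes are given by the array maker's identifiers, because the files used here pair no circRNA probe with a host gene, a genome position or a sequence. For the same reason host-gene groups could not be counted. The cell type could not be checked either: all 70 linear mRNA probes on the array were named through RefSeq, and none of the 16 β-cell and other cell type markers sought was among them. In bulk RNA of this kind, fewer cells making a transcript and less transcript in each cell cannot be told apart.

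The flag in question is set by the scanner software for a spot whose background-subtracted signal is positive, differs significantly from its local background and lies above it by a set multiple of the background spread. The arrays did not detect equally. Between 8984 and 10094 circRNA probes were well above background on the untreated arrays, and between 8735 and 10226 on the cytokine arrays. The highest of these totals was on Cyt 24 h replicate 1 and the next on Control 48 h replicate 3. Slides were inferred from the scan day. On that basis, the 24 h arrays and Control 48 h replicates 1 and 2 lay on one slide. Control 48 h replicate 3 and the cytokine 48 h arrays lay on the other, so that most of the 48 h contrast crossed slides. Cyt 24 h replicate 2 had a separate scan.

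Of the 52 probes, 43, 52 and 50 were detected on the untreated 24 h arrays in order of replicate. The untreated 48 h arrays detected 42, 39 and 51 of them. The cytokine arrays detected 27, 1 and 7 at 24 h. They detected 5, 1 and 3 at 48 h. Every untreated array lies above every cytokine array in this count, which the rule favoured, but Cyt 24 h replicate 1 stands well apart from the other 5 cytokine arrays. Summed over arrays, 277 of 312 untreated spots (88.8%) and 44 of 312 cytokine spots (14.1%) of these probes were detected, beside 69.6% and 67.5% of the spots of all circRNA probes.

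**Figure D1:**
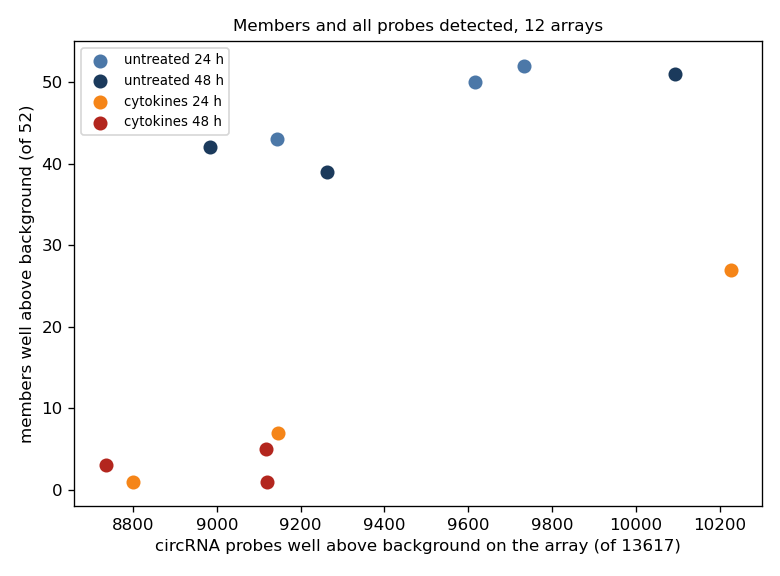
Each point is one of the 12 arrays, with the number of circRNA probes well above background on the x axis (of 13617) and the number of the 52 members well above background on the y axis. The 6 untreated arrays held 39 to 52 members and the 6 cytokine arrays 1 to 27, and the cytokine array with 27 members is the one with the most detected probes of all, 10226.

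The exceptions that the rule allowed were not spread evenly. The 44 single detections with cytokines fell mostly on Cyt 24 h replicate 1, which held 27 of them, while Cyt 24 h replicate 3 held 7 and no other cytokine array more than 5. The 35 single gaps among untreated arrays fell mostly on Control 48 h replicate 2 with 13, Control 48 h replicate 1 with 10 and Control 24 h replicate 1 with 9. Those are the untreated arrays with the fewest detected probes. The part of array-wide detection in the membership was not tested.

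Only 2 members, ASCRP3011431 and ASCRP3000049, were detected on all 6 untreated arrays and on 0 of 6 cytokine arrays. Another 15 were detected on 6 untreated arrays and 1 cytokine array, 6 on 5 untreated arrays and no cytokine array, and 29 on 5 and 1. Just inside the rule, those 29 had mean normalized signals of 2.20 to 3.04 over the untreated arrays and of 1.30 to 2.31 over the cytokine arrays. Normalized signal here is the log2 of the background-subtracted intensity after quantile normalization over the 12 arrays. Just outside, 62 probes with 4 untreated arrays and 1 cytokine array ran from 1.83 to 3.00 and from 0.74 to 2.40. A further 61 probes with 5 and 2 ran from 2.16 to 4.04 and from 1.39 to 2.56. The levels on the near side and the far side of each threshold thus overlap over most of their range.

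The number was also set against the arrays relabelled within each time point, as a description only. Of the 400 ways to call 3 of the 6 arrays of each time untreated, the labelling of the study gave 52 probes, and 10 of the 399 others gave at least as many, up to 87. The others had a median of 7. All 10 put Cyt 24 h replicate 1 and Control 48 h replicate 3, the arrays with the most detected probes, on the untreated side. A labelling that gave 87 kept 5 of the 6 untreated arrays on the untreated side, so it stayed close to that of the study. With all labels reversed, so that the rule sought probes gained with cytokines, 30 probes met it, and 37 of the others gave more than that. When the same number of brightest probes, 8735, was instead counted as detected on every array, an alternative added after the data were seen, 21 probes met the rule and 59 met its reverse, so the order of losses and gains turned. Of these 21, 9 were members (42.9% of the 21 and 17.3% of the 52).

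**Figure D2:**
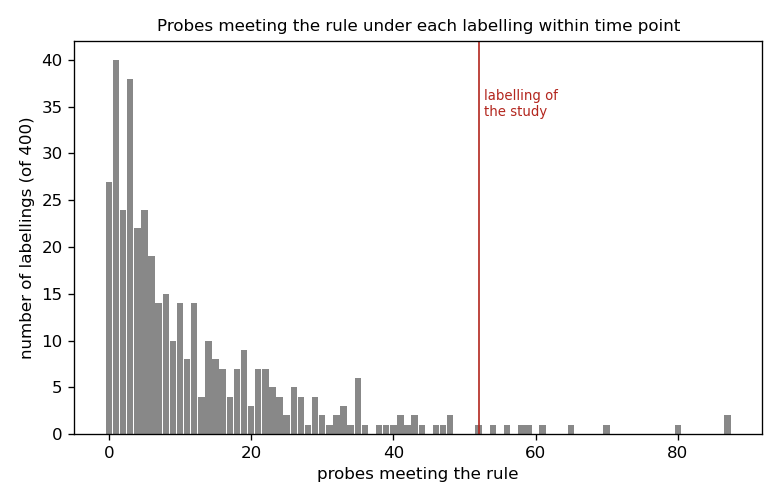
Number of labellings of the arrays within time point (y axis, of 400) that gave each number of probes meeting the rule (x axis). The vertical line marks the labelling of the study at 52 probes, and 10 other labellings lie at or to the right of it, the highest at 87.

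All 52 were dim probes. Their median raw signal was 22 to 24.5 intensity units on the untreated arrays and 17 to 22.3 on the cytokine arrays, over a median local background of 14 to 16 units. After background subtraction the medians were 6.16 to 8.66 and 2.87 to 5.73, while the dimmest circRNA spot flagged well above background measured 4.27 to 4.89 on each array. On the normalized log2 scale the medians ran from 2.57 to 2.95 without cytokines and from 1.89 to 2.15 with them, beside 3.78 for all circRNA probes. The median member thus lay between the 34.1st and 38.8th percentile of all circRNA probes on untreated arrays and between the 26.8th and 29.5th on cytokine arrays. None of the spots of the 52 probes was saturated, non-uniform or an outlier.

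**Figure D3:**
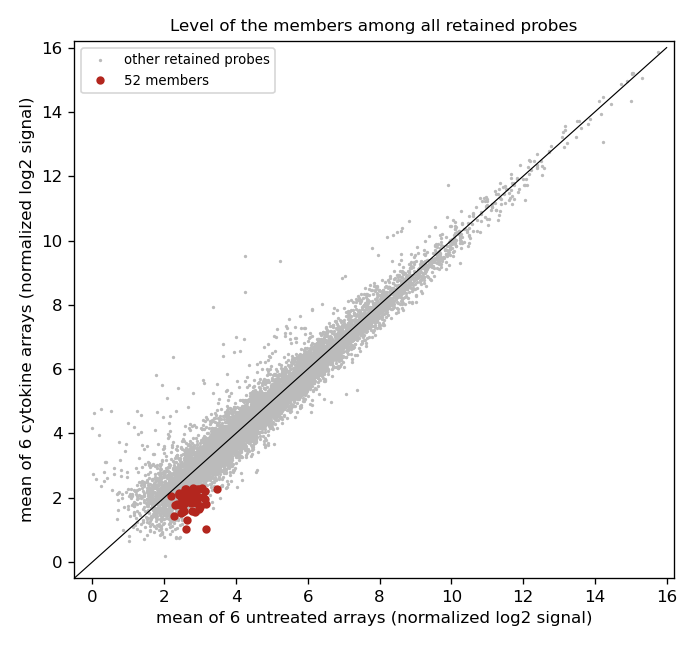
Mean normalized log2 signal over the 6 cytokine arrays (y axis) against that over the 6 untreated arrays (x axis) for the 10211 retained circRNA probes in grey and the 52 members in red, with the line of equality. The members lie in the dimmest part of the range, at 2.20 to 3.47 without cytokines and 1.02 to 2.31 with them.

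The phrase "lost from detection" holds for the stricter flag only. By the flag that asks just for a signal positive and significantly different from background, the 52 probes were present on 312 of 312 untreated spots and on 300 of 312 cytokine spots (96.2%), beside 86.7% and 86.1% of the spots of all circRNA probes. On all 6 cytokine arrays, 42 of the 52 kept this flag, and none kept it on fewer than 4. The array's 600 negative control spots, from 60 probes, give a further yardstick. On each array 23 to 35 of these 600 spots were themselves flagged well above background. Their 95th percentile of background-subtracted signal varied between arrays from 2.92 to 11.1 units, and 189 of 312 untreated and 113 of 312 cytokine spots of the members exceeded it. By array, 6 to 52 members exceeded it without cytokines and 1 to 40 with them. Only 1 untreated and 6 cytokine spots of the members exceeded the highest control spot of their array.

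The differences in signal behind the flags varied in size. Since the members were chosen on these arrays, the differences are a description and carry no test. The mean untreated minus cytokine difference over 12 arrays ranged from 0.14 to 2.14 on the log2 scale with a median of 0.71, and lay above 0 in 52 of 52. Over the 10211 retained circRNA probes, those detected on at least 3 arrays, the median was 0.05 and 55.8% lay above 0. Most cytokine spots were not well above background, so these differences rest largely on signals without the flag. Their exact sizes hold only for this background-subtracted scale. The median SD of a member was 0.46 among the 6 untreated arrays and 0.57 among the 6 cytokine arrays. At 24 h the median difference was 0.71, with 46 of 52 above 0, beside 55.9% of the retained probes. At 48 h it was 0.81, with 47 of 52 above 0, beside 49.2%. Within the first slide it was 0.72 (48 of 52 above 0, beside 56.9% of the retained probes). That slide held untreated arrays of both times but cytokine arrays of 24 h only, so time and treatment are mixed there. Within the second slide, which held a single untreated array, the median difference was 0.81 (45 of 52 above 0, beside 50.4%). Without Cyt 24 h replicate 1 the median over the remaining arrays was 0.72. In the authors' own normalized log2 values the same probes differed by a median of 0.15, from 0.01 to 0.39. Over all retained probes the difference in those values had a median of 0.02, with a 5th to 95th percentile of -0.39 to 0.35.

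The groups were also compared array by array. The normalized signal of all 6 untreated arrays lay above all 6 cytokine arrays for 3 of the 52, beside 123 of 10211 retained probes (1.2%). At 24 h the 3 untreated arrays lay above the 3 cytokine arrays for 18 of the 52, beside 906 of 10211 retained probes (8.87%). At 48 h they did so for 23 of the 52, beside 1085 retained probes (10.6%). With limma, a call needed a log2 fold change of 1 or more in size and an adjusted p under 0.05. At 24 h, 2 members were called lower, beside 14 of 10211 retained probes (0.137%). At 48 h, 2 other members were called lower, beside 14 retained probes (0.137%). In the mean of both times 5 members were called lower, beside 34 retained probes (0.333%). Nothing is read from these counts, because the rule used the same contrast.

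ASCRP3011431 and ASCRP3000049, the only members that no cytokine array detected and every untreated array did, show how narrow the margin was. ASCRP3011431 measured 3.46, 2.33 and 3.00 (normalized log2 signal) on the untreated 24 h arrays and 2.94, 3.16 and 2.35 on those of 48 h, against 1.62, 0.06 and 2.42 with cytokines at 24 h and 2.46, 1.55 and 1.17 at 48 h. Its groups overlap at both times, since the highest cytokine array at each time exceeded the lowest untreated one. ASCRP3000049 measured 2.57, 2.09 and 2.68 at 24 h and 2.64, 2.92 and 2.37 at 48 h in untreated cells, against 1.02, 2.02 and 1.67 and then 1.11, 1.43 and 2.19 with cytokines. Its groups are separate within each time, at 24 h only barely, and overlap across times.

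The brightest members in untreated cells were ASCRP3002140, ASCRP3002750 and ASCRP3003244, with means over the 6 untreated arrays of 3.47, 3.16 and 3.15. ASCRP3002140 measured 3.79, 3.32 and 3.58 at 24 h and 3.17, 3.48 and 3.45 at 48 h without cytokines, against 2.98, 2.34 and 1.93 and then 2.34, 2.19 and 1.89 with them. No cytokine array reached the lowest untreated one, and the only cytokine array on which it was detected, Cyt 24 h replicate 1, is also the highest of the 6. ASCRP3002750 had the largest difference of the 52 on this scale, 2.14 log2 units, and 0.39 in the authors' values. It measured 3.55, 3.36 and 3.29 at 24 h and 3.97, 2.42 and 2.35 at 48 h in untreated cells, against 2.41, 1.03 and 2.21 and then 0.01, -0.03 and 0.47 with cytokines. All 3 cytokine arrays of 48 h are below every other array for this probe and none was flagged. With those spots set to the lowest flagged signal of their array, its mean at 48 h was 1.45-fold lower with cytokines.

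ASCRP3003244 measured 2.65, 3.39 and 3.06 at 24 h and 3.26, 2.86 and 3.70 at 48 h without cytokines. With cytokines it measured 1.95, 2.10 and 1.50 at 24 h, and 1.92, 0.68 and 2.68 at 48 h. The groups are separate within each time, and only Cyt 48 h replicate 3 comes up to the lowest untreated array. On that last array a normalized signal of 2.68 was not flagged, whereas 1.95 on Cyt 24 h replicate 1 was. The dimmest detected circRNA probe of an array lay between 1.59 and 2.54 on the normalized scale. The lowest of those floors was on Cyt 24 h replicate 1 and the next, 1.67, on Control 48 h replicate 3.

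**Figure D4:**
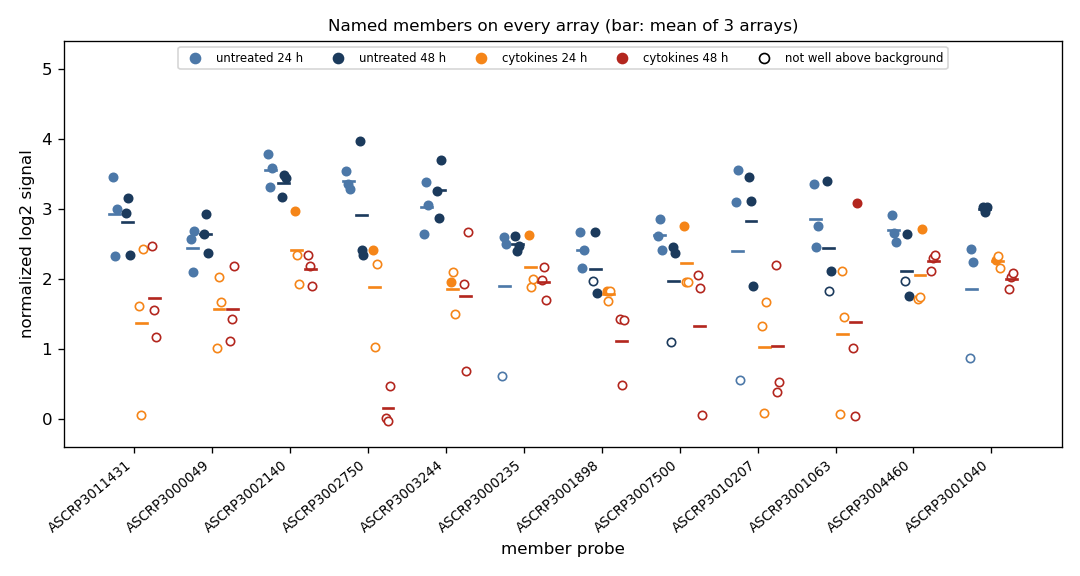
Normalized log2 signal (y axis) of the 12 members named by rule (x axis) on every array, coloured by group, with a bar at the mean of 3 arrays and open circles where the spot was not well above background. ASCRP3002140 shows no overlap of untreated and cytokine arrays, ASCRP3002750 the largest difference, 2.14, and ASCRP3000235 the smallest, 0.14.

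ASCRP3010207 and ASCRP3001063 had the next largest differences among the 52 on this scale, 1.58 and 1.35 log2 units, and both varied strongly within groups. ASCRP3010207 measured 3.09, 3.56 and 0.55 at 24 h and 3.46, 3.11 and 1.91 at 48 h without cytokines, against 1.32, 0.09 and 1.66 and then 2.19, 0.38 and 0.53 with them. Control 24 h replicate 3 was below 3 of the 6 cytokine arrays, and the groups overlap at both times. ASCRP3001063 measured 3.35, 2.45 and 2.76 and then 3.40, 1.82 and 2.12 in untreated cells, against 0.07, 2.11 and 1.45 and then 1.02, 0.04 and 3.09 with cytokines. Here Cyt 48 h replicate 3 was higher than 4 of the 6 untreated arrays, so the groups overlap at 48 h but not at 24 h.

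At the other end, ASCRP3000235, ASCRP3004460 and ASCRP3001040 met the rule with the smallest differences in mean signal, 0.14, 0.26 and 0.30 log2 units. ASCRP3000235 measured 0.61, 2.60 and 2.50 and then 2.62, 2.40 and 2.47 without cytokines, against 2.62, 1.89 and 1.99 and then 1.99, 2.17 and 1.70 with them. The lowest of the 12 values was on an untreated array, and the highest, 2.62, was reached with and without cytokines. ASCRP3004460 measured 2.91, 2.66 and 2.53 and then 1.97, 2.64 and 1.75 without cytokines, against 1.71, 1.73 and 2.71 and then 2.12, 2.30 and 2.35 with them. At 48 h its mean was 2.12 in untreated cells and 2.25 with cytokines, opposite to the direction of its flags. ASCRP3001040 measured 0.87, 2.43 and 2.25 and then 3.03, 2.96 and 3.03 without cytokines, against 2.28, 2.32 and 2.16 and then 1.85, 2.03 and 2.09 with them, so it was lower with cytokines at 48 h on every array but not at 24 h, where the mean was 1.85 untreated and 2.25 with cytokines.

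ASCRP3001898 and ASCRP3007500 were, with ASCRP3000235, the dimmest members in untreated cells, with means of 2.28, 2.30 and 2.20. ASCRP3001898 measured 2.67, 2.15 and 2.42 and then 1.97, 2.67 and 1.80 without cytokines, against 1.83, 1.68 and 1.82 and then 1.42, 0.49 and 1.41 with them. It is separate within each time although its cytokine values at 24 h reach its untreated values at 48 h. ASCRP3007500 measured 2.62, 2.86 and 2.42 and then 1.09, 2.46 and 2.37 without cytokines, against 2.75, 1.95 and 1.96 and then 2.06, 1.86 and 0.05 with them, and overlaps at both times.

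The other probes that stood out were named after their values were seen. Beside ASCRP3002140, the members whose 6 untreated arrays all lay above all 6 cytokine arrays were ASCRP3006709, whose lowest untreated value was 2.70 and highest cytokine value 2.52, and ASCRP3008624, with 2.39 and 2.34. The members behind the limma counts above are named as a description only, since the same cytokine and untreated values chose them and the calls are no evidence for them. At 24 h they were ASCRP3000644 and ASCRP3006069, with log2 fold changes of -1.15 and -1.70 there and of -0.02 and -0.34 at 48 h. At 48 h they were ASCRP3002750 and ASCRP3011763, with -2.76 and -1.67 there and -1.51 and -0.70 at 24 h. In the mean of both times they were ASCRP3004654, ASCRP3002140, ASCRP3003244, ASCRP3002750 and ASCRP3011763. The single highest value of any member, 4.63, was on a cytokine array, Cyt 48 h replicate 3, for ASCRP3002074.

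**Figure D5:**
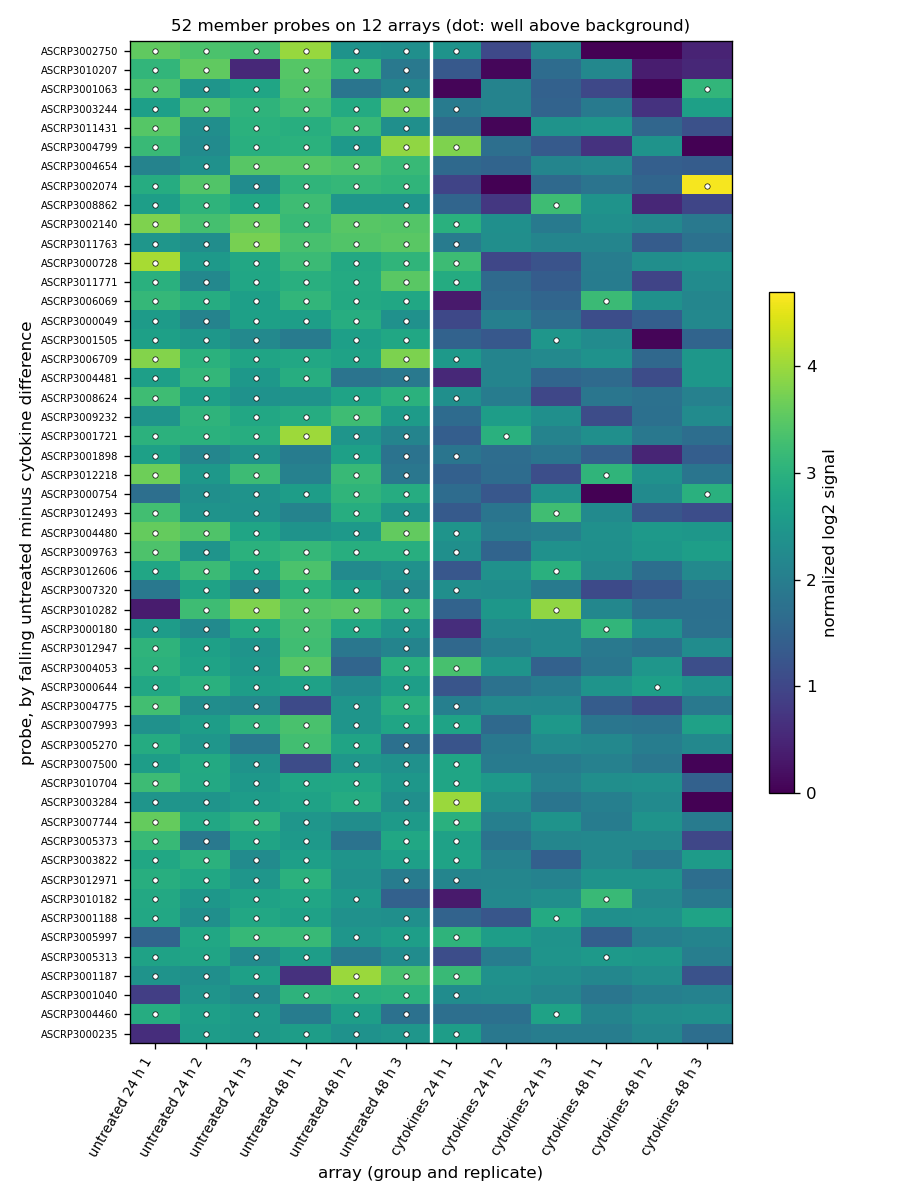
Normalized log2 signal (colour) of the 52 members (y axis, by falling untreated minus cytokine difference) on the 12 arrays (x axis), with a white dot where the spot was well above background. Dots fill the untreated columns and are sparse in the cytokine columns except for Cyt 24 h replicate 1 with 27, while the colours of the groups run into each other, most of all in the lower rows.

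Folds were also computed with dim cytokine spots raised to the lowest flagged signal of their array, while untreated spots kept their values. On each array some spots without the flag were brighter than that, up to 6.28 units on Cyt 24 h replicate 2 against 4.57. The folds are therefore not strict lower bounds, and they describe probes chosen by the same flags. At 24 h, 17 members were detected on 0 of 3 cytokine arrays. For 16 of them the mean was 1.17-fold to 1.94-fold lower with cytokines on this measure, with a median of 1.47-fold. At 48 h, 43 members were detected on 0 of 3, and for 36 of them the folds ran from 1.01-fold to 2.05-fold with a median of 1.29-fold. A fold was kept only where it showed a fall. The rest of the 17 and of the 43 showed none on this measure, and the ranges and medians leave them out. Members with a cytokine detection at that time were not put on this measure. For 12 of the 16 and 24 of the 36, all 3 untreated arrays of that time had measured the probe. The highest of these folds, 2.05, belonged to ASCRP3011763 at 48 h.

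The rule did not contrast the times, but it used the flags of all 12 arrays and so kept out probes detected at one time and lost at the other. The members' values between times are therefore conditioned on the choice, and their counts below are a description from which nothing is read. In untreated cells, 0 of the 52 members were called at 48 h against 24 h with limma, as were 0 of the 10211 retained probes (0.0%), and the unadjusted p was below 0.05 for 2 members and 323 probes. In cytokine-treated cells 0 members were called (0.0% of all retained probes), with an unadjusted p below 0.05 for 8 members and 1218 probes. For the difference of the cytokine change between the times 0 were called as well (0.0%), with 5 and 1035.

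These unadjusted counts moved with the arrays used. In untreated cells they were 4 members and 950 probes without Control 24 h replicate 3, and the probes numbered 501 without Cyt 24 h replicate 1, 215 without Control 24 h replicate 1 and 197 without Control 24 h replicate 2. All cytokine 24 h arrays lay on the first slide and all cytokine 48 h arrays on the second, so this contrast lies wholly across slides, and with the slide as a block its counts were 5 members and 502 probes. They were 5 and 733 without Cyt 24 h replicate 2, and 10 and 1916 without Cyt 24 h replicate 3. For the difference of the cytokine change they were 9 and 1752 without Control 24 h replicate 3 and 9 and 1697 without Cyt 24 h replicate 3. They were 4 and 601 without Control 24 h replicate 1, 4 and 665 without Cyt 48 h replicate 1, and 8 and 849 without Cyt 48 h replicate 2.

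Among untreated cells the members' log2 fold changes from 24 h to 48 h ran from -0.76 to 1.15 with a median of -0.10. The highest was that of ASCRP3001040, at 1.15 (SE 0.34, limma adjusted p = 0.999), whose single low value was Control 24 h replicate 1. Among cytokine-treated cells they ran from -1.73 to 1.82 with a median of -0.15. Here most spots were not well above background, so the values carry no order: ASCRP3002750 was flagged on 1 of 3 cytokine arrays at 24 h and 0 of 3 at 48 h, and ASCRP3006069 and ASCRP3002074 each on 0 of 3 and 1 of 3.

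The difference of the cytokine change between 48 h and 24 h ranged from -1.64 to 1.77, with a median of -0.19 over the members and 0.02 over all retained probes. The lowest limma adjusted p of any member was 0.473, reached by ASCRP3012218, ASCRP3000644 and ASCRP3001040. ASCRP3000644 was lower with cytokines on all 3 arrays of 24 h, while its means at 48 h were 2.52 untreated and 2.50 with cytokines. For ASCRP3001040 the 3 cytokine arrays lay below the 3 untreated ones at 48 h and not at 24 h. Neither was called for the difference between times.

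The array positions of the 52 probes were looked at as something the rule did not use. Of the 192 rows of the array, the first 48 held 19 of the 52 members (36.5%) and 24.8% of all circRNA probes, and the following blocks of 48 rows held 13, 8 and 12. Only 3 pairs of members lay within 2 rows and 2 columns of each other. Their part in the flags was not tested.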

How the data were processed

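RNA was isolated with the RNeasy Mini kit, digested with RNase R, labelled with Cy3 by random priming and hybridised to the Arraystar Human circRNA Array V2 on 12 arrays. The deposited scanner files, made by the authors with Feature Extraction 11.0.1.1, hold for each spot the intensity before and after background subtraction and the detection flags, coded 0 or 1. The authors' table holds quantile-normalized log2 values of the same arrays. The number of arrays limits the precision. Here processed intensity was log2-transformed and quantile-normalized over the 12 arrays (each circRNA probe has a single spot), and 10211 of 13617 circRNA probes detected on at least 3 arrays were retained. Contrasts were fitted over 4 groups with limma 3.58.1 in R 4.3.3, with Benjamini-Hochberg adjustment over all retained probes, and calls needed a log2 fold change of 1 or more in size with an adjusted p under 0.05. The limma fits of the contrasts between times were also run on simulated arrays with normally distributed noise. That run did not cover the membership rule or the cytokine contrasts. Slides were inferred from the scan day alone, so a slide here stands for a scan day. Named probes were those detected on 6 untreated and 0 cytokine arrays, the 3 highest and 3 lowest in untreated signal, the 3 largest and 3 smallest differences, and any called between times. The members, lists and rules were chosen with earlier results of these data known. The main fits did not pair the samples by replicate number. Over 18 pairs of same-numbered arrays, the correlation of deviations from the group means ran from -0.34 to 0.33, and 6 exceeded 0.1. With 3 arrays in a group, these correlations cannot show whether same-numbered samples were paired. The alternatives changed the flag, its thresholds, the normalization, the filter, the slide, the replicate block and each array in turn.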

Additional observations from a re-analysis of the deposited data

How the results depend on the processing

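The number of members depended on the definition of detection. It was 24 with the positive-and-significant flag (0 shared with the 52), 2 when 6 and 0 arrays were required, 299 when 4 and 2 sufficed, 39 from the 24 h arrays alone (3 of 3 against 0 of 3; 12 shared), 74 from the 48 h arrays alone (24 shared), 18 with one floor of normalized signal for all arrays (13 shared), and 21 with the same number of brightest probes on every array. Leaving out single arrays gave 63 to 112, which by construction loosens the rule and kept all 52: 112 without Cyt 24 h replicate 1, 95 and 85 without Control 48 h replicates 1 and 2, and 91 without Control 24 h replicate 1 or Cyt 24 h replicate 3. The median cytokine minus untreated difference was -0.71, and -0.17 on signal before background subtraction and -0.15 in the authors' values. It ranged from -0.76 to -0.67 when single arrays were left out. With the replicate block 0 members were called in each contrast between times, and 0 in every other alternative run, single arrays left out included. Over all retained probes those alternatives called 0 in each contrast, except 3 for the difference between times without Control 24 h replicate 3. A fit to only the arrays compared is, for that difference, the fit reported. Signals of the members, close to background, limit every fold given.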
